A study of Mus musculus with 17 samples.

Results

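The 48 genes described here belong to the glutathione and antioxidant defence of the mouse kidney: the glutathione transferases, the enzymes that make, recycle and take up glutathione, the peroxidases that use it, the thioredoxin system, catalase and the superoxide dismutases, the metallothioneins, and the transcription factor NRF2 (gene Nfe2l2) with its repressor Keap1 and targets. Members were chosen by gene symbol, and all 48 were found among the 22561 genes of the deposited expression table. RNA sequencing of whole kidneys compared 3 groups of male mice. Ctrl held 5 C57BL/6 wild-type mice given saline, Case held 6 db/db mice (BKS.Cg-Dock7m +/+ Leprdb/J, which lack a working leptin receptor and become obese and diabetic) given saline, and Dapa held 6 db/db mice given dapagliflozin, which blocks glucose reuptake by the transporter SGLT2, by gavage at 1.0 mg/kg/day. In all 3 groups saline or drug was given for 6 weeks from 8 weeks of age. Case and Dapa share the db/db genotype and its BKS background, whereas Ctrl mice are of another strain, so that diabetes, the leptin receptor mutation and strain background cannot be told apart in any comparison with Ctrl. In whole tissue, fewer cells of a type and less RNA per cell cannot be told apart either.

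Glutathione is a small peptide that reduces peroxides and is coupled to electrophiles by the glutathione transferases, which makes them easier to excrete. NRF2 is held and degraded through KEAP1 in resting cells, and when reactive compounds modify KEAP1 it enters the nucleus and binds antioxidant response elements near genes such as Nqo1, Gclc, Gclm and several transferases. The proximal tubule, which takes up glutathione parts through the brush border enzyme GGT1, holds much of the kidney's glutathione metabolism.

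Libraries held 13039535 to 17779635 counted reads. In 7 of them (Ctrl replicates 1, 3 and 4, Case replicate 1 and Dapa replicates 10 to 12) the deposited counts and FPKM of 3 genes entered in split form, none of them a member, did not match each other. Mitochondrially encoded genes took 17.9% to 20.4% of reads in Ctrl, 19.8% to 27.3% in Case and 19.7% to 27.6% in Dapa. In the list of proximal tubule markers, 7 of 15 genes were lower and none was higher in Case against Ctrl, and its summed FPKM (fragments per kilobase of transcript, scaled to library size) ran from 13495 to 21061 in Ctrl, from 5236 to 8509 in Case and from 4991 to 10115 in Dapa. Kap, an androgen-dependent transcript, made up 64.2% of the list's mean FPKM in Ctrl, 22.7% in Case and 28.3% in Dapa, and without it the ranges were 5793 to 6592, 3542 to 6662 and 4084 to 6447. Erythrocyte genes were higher, with 5 of 6 called in Case (summed FPKM 22.1 to 73.7 in Ctrl, 61.2 to 440.3 in Case, 114 to 362 in Dapa), and so were 3 of 5 tested genes of injured tubules (90.7 to 153 in Ctrl, 269.6 to 1467 in Case, 265 to 707 in Dapa). The kidney label was checked on the phosphate transporter Slc34a1 of the proximal tubule, which was abundant in every group, with a mean of 1388 FPKM in Ctrl, 1218 in Case and 1208 in Dapa. These shifts accompany the members' changes below, and their part in them was not tested.

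**Figure D1:**
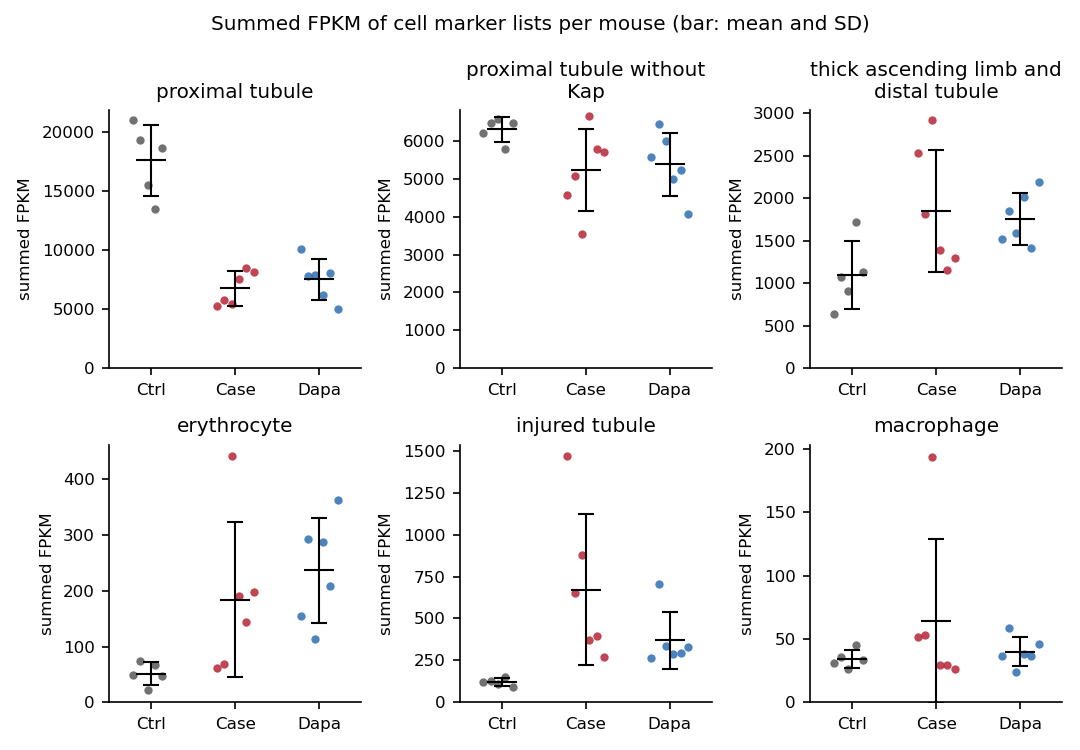
Summed FPKM of 6 marker lists (y axes, linear, from 0) in each mouse of Ctrl, Case and Dapa, with the mean and SD of each group as black bars. All Case and Dapa mice lie below all Ctrl mice in the proximal tubule list, but not once Kap is left out, and Case replicate 3 has the highest erythrocyte and macrophage sums.

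Of the 48 members, 45 had enough reads to be tested, and Slc7a11, Gstm3 and Mgst2 did not. A gene was called when its adjusted p (q, edgeR quasi-likelihood test, Benjamini-Hochberg over all genes tested) was under 0.05. In Case against Ctrl, 14 members were called, or 31.1% of those tested, beside 13% of all 14582 genes tested. Of these, 8 were higher (17.8%, beside 6.09% of all genes) and 6 were lower (13.3%, beside 6.91%). The higher ones were Gsta1, Gsta2, Gsta4, Gsto1, Mgst1, Mgst3, Mt1 and Mt2, and the lower ones Gclc, Gclm, Gss, Ggt1, Cat and Sod3. The higher ones thus comprised 6 of 18 tested transferases and both metallothioneins, and the lower ones 4 of 5 tested genes of glutathione supply, catalase and the extracellular superoxide dismutase. The median log2 fold change over the 45 members was 0.01, beside 0.03 over all genes tested. A fold above 2 between mean FPKM as well was reached by 6 members (3.79% of all genes), all of them higher: Gsta1, Gsta2, Gsto1, Mgst1, Mt1 and Mt2. FPKM ranges of Case and Ctrl did not overlap for 9 members (8.43% of all genes). Tested with limma on log2(FPKM + 1), 16 members were called, 11 higher (7.16% of all genes) and 5 lower (4.96%).

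The db/db mice given dapagliflozin differed from Ctrl in more members. In Dapa against Ctrl, 28 members were called (62.2%, beside 29.1% of 14647 genes), 14 of them higher (14.2% of all genes) and 14 lower (14.9%). Under limma 14 were higher (19.9% of all genes) and 9 lower (10.2%). All 14 members called in Case against Ctrl were among them, in the same direction, but both comparisons use the same Ctrl mice and are not independent. The fold rule was met by 8 members (7.18% of all genes), the 6 just named without Mgst1 and, in addition, Gsta4, Gstm2 and Gpx6. FPKM ranges did not overlap for 12 members (14.5% of all genes). Leaving out Ctrl replicate 2 gave 18 calls (21.8% of all genes) and leaving out Dapa replicate 10 gave 17 (22.3% of all genes). Without the 7 mismatched libraries 2 Ctrl mice are left, replicate 5 and replicate 2 with its smaller deviation. Then 2 members were called in Case (Gsto1 and Mt1), or 4.44%, beside 1.70% of all genes, and 5 in Dapa (Gsta2, Gsta4, Gsto1, Ggt1 and Mt1), or 11.1%, beside 1.84%. All 12 members whose call in Case was lost kept their sign, with log2 fold changes 0.894 to 1.34 times as large (Gsta2 3.61, q = 0.126, Gsta4 1.03, q = 0.0625). Of the named members, 20 lost their call in Dapa and kept their sign, with log2 fold changes 0.380 to 1.70 times as large. In Dapa against Case no member was called, as was true of all genes tested (0%). DESeq2 called 208 genes there (1.44%) and edgeR's exact test 125 (0.858%), none of them a member. At an unadjusted p under 0.05 stood 6 members (13.3%), beside 12.9% of all genes, and no member had FPKM ranges that did not overlap (0.48% of all genes).

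**Figure D2:**
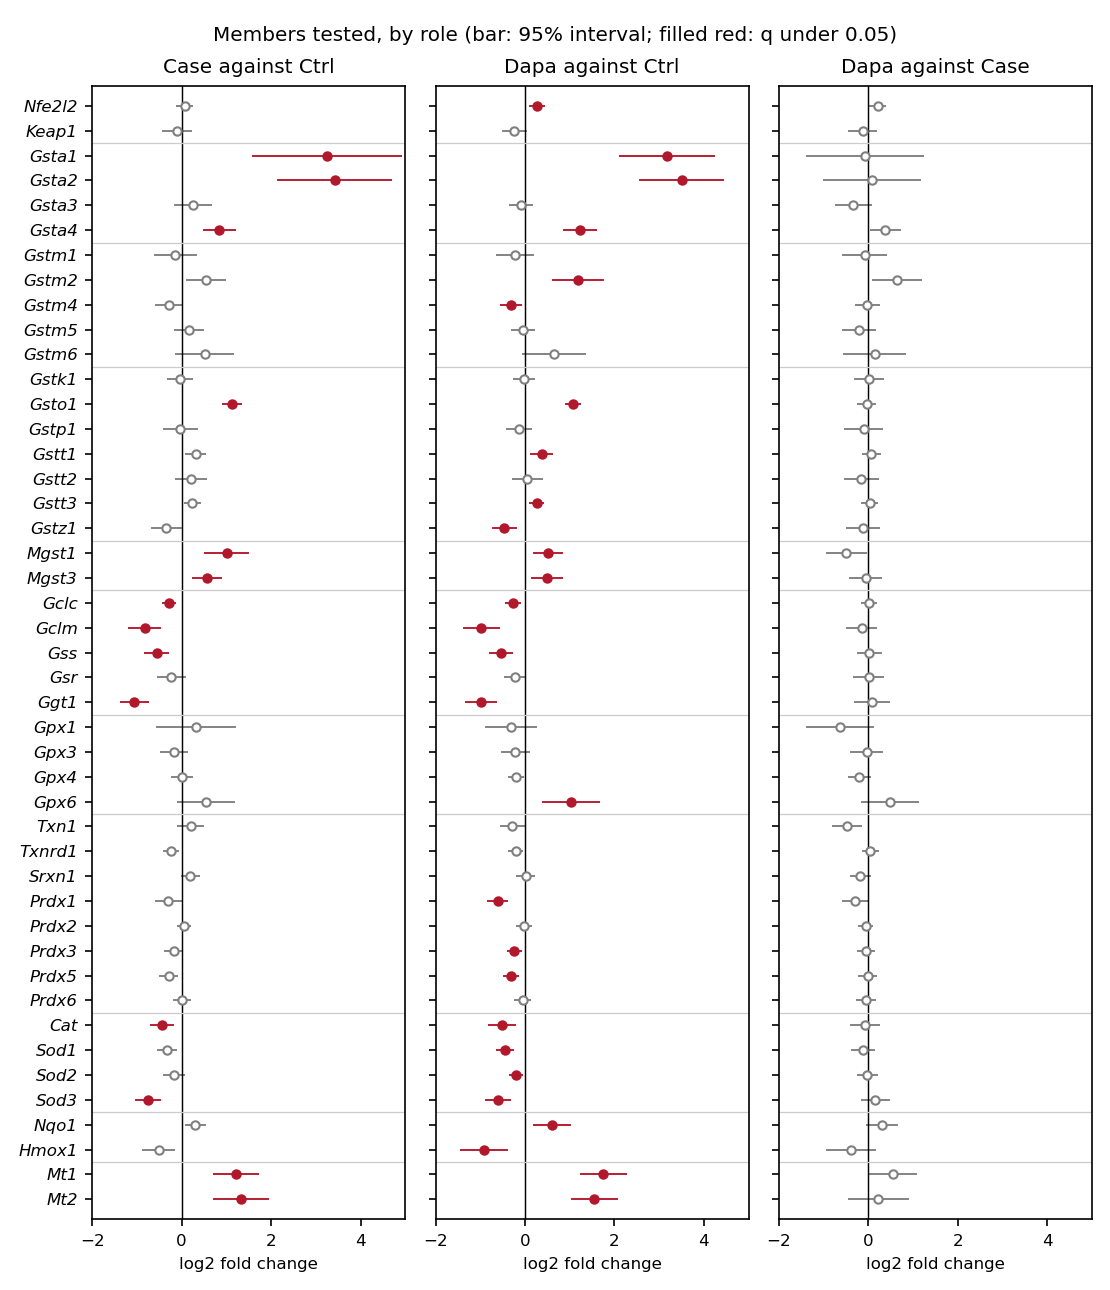
Log2 fold change (x axis) of each of the 45 members tested (y axis, grouped by role, from NRF2 at the top to the metallothioneins at the bottom) in the 3 comparisons, with its 95% interval as a bar. Filled red points passed q under 0.05: 14 in Case against Ctrl, 28 in Dapa against Ctrl and 0 in Dapa against Case.

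Nfe2l2, which encodes NRF2, was not called in Case and was higher in Dapa than in Ctrl. Its FPKM were 23.1, 25.4, 28.4, 30.8 and 28.9 in Ctrl replicates 1 to 5, with a lowest, median and highest of 27.2, 29.2 and 35.9 in Case and of 32.3, 33.7 and 40.8 in Dapa. All 6 Dapa mice lay above all Ctrl mice, whereas Case and Ctrl overlapped. The log2 fold change was 0.07 ± 0.09, q = 0.648 in Case against Ctrl and 0.27 ± 0.09, q = 0.0310 in Dapa against Ctrl, and Dapa against Case gave a log2 difference of 0.21 (95% interval 0.02 to 0.40, q = 0.344). The Nfe2l2 call in Dapa was lost without Ctrl replicate 1 or 2 or Dapa replicate 10 or 11 (q up to 0.0713). Keap1 averaged 3.96 ± 0.507 FPKM in Ctrl, 3.92 ± 0.957 in Case and 3.62 ± 0.592 in Dapa and was called in no comparison.

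The letters of the antioxidant response element core, TGACNNNGC on either strand, were searched for in RefSeq promoter windows (GRCm38, the build called mm10, 250 bases before to 50 after a gene's start). Windows were listed for 41 members. The core was found in 11 of them (26.8%), beside 14% of all 27025 genes with a window: Nfe2l2 itself, Gsta3, Gstm5, Mgst1, Gclm, Ggt1, Txnrd1, Srxn1, Prdx1, Sod1 and Mt2. Of these 11, 2 were higher (Mgst1, Mt2), 2 lower (Gclm, Ggt1) and 7 not called in Case against Ctrl. There 13% of all genes were called, 6.09% higher and 6.91% lower. In Dapa against Ctrl 3 were higher (14.2% of all genes) and 4 lower (14.9%). Of the 27 tested members whose windows lack the core, 5 were higher and 2 lower in Case and 10 and 7 in Dapa, beside the same shares of all genes. Stretches around the core are shown for the members called in any comparison, with the core in capitals and up to 20 bases on either side, 5′ to 3′ in the direction of the gene. A match is a description of letters, not a bound site.
Nfe2l2, chr2:75704875-75704913, - strand: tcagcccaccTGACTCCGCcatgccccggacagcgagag
Gclm, chr3:122245403-122245451, + strand: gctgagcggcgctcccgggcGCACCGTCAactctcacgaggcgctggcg
Prdx1, chr4:116685446-116685494, + strand: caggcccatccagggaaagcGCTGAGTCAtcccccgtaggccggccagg
Mgst1, chr6:138140451-138140499, + strand: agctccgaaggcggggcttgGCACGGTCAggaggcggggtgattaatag
Mt2, chr8:94172519-94172567, + strand: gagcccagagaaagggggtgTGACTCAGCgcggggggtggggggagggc
Ggt1, chr10:75564153-75564181, + strand: acttgttgaccttgggcatcTGACACAGC
Ggt1, chr10:75568606-75568654, + strand: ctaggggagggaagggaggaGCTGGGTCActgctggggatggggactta
Ggt1, chr10:75571457-75571505, + strand: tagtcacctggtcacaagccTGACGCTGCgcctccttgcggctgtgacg
Sod1, chr16:90220686-90220734, + strand: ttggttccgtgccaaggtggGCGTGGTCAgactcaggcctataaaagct

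Of the alpha class transferases, which act on products of lipid peroxidation, 3 of 4 were called higher in both db/db groups, beside 6.09% of all genes in Case and 14.2% in Dapa. Gsta2 and Gsta1 had the largest log2 fold changes of the members called. Gsta2 (chromosome 9, 78331018 to 78355788) stood at 8.41, 5.19, 6.12, 18.1 and 12.6 FPKM in the 5 Ctrl mice. In Case the lowest, median and highest were 25.6, 110.1 and 215, and in Dapa 48.9, 133 and 201. Every db/db mouse, treated or not, exceeded every Ctrl mouse, while the spread within Case and within Dapa was wide. The mean FPKM was 11.2 times that of Ctrl in Case and 12.1 times in Dapa (log2 fold change 3.42 ± 0.59, q = 0.00361 and 3.50 ± 0.44, q = 0.000318). Dapa and Case were not distinguishable, at a log2 difference of 0.08 (95% interval -1.02 to 1.18, q = 0.961).

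Gsta1, its close relative on the same chromosome (78230656 to 78242684), was nearly silent in Ctrl at 0.642, 0.159, 0.311, 1.13 and 0.662 FPKM. It reached 0.213, 5.21 and 11.5 in Case and 2.22, 4.88 and 11.7 in Dapa as lowest, median and highest. Case replicate 3 stayed within the Ctrl range, and the other 5 Case mice and all 6 Dapa mice lay above it. The log2 fold change was 3.25 ± 0.78, q = 0.0181 in Case and 3.17 ± 0.50, q = 0.00101 in Dapa. The Gsta1 call in Case was lost without Ctrl replicate 3 (q then 0.0523). It was also lost under limma on log2(FPKM + 0.1), without the mismatched libraries and with the replicate block (q up to 0.223), and limma on log2(FPKM + 1) gave a log2 fold change of 1.76 for Gsta1 in Case. Of the 50-base words in annotated Gsta1 transcripts, 90.5% also occur in other genes, and of those of Gsta2 49.8% do (36.0% in Gsta1), so the split of reads between these genes is uncertain. The share was also above 20% for Mt2 (45.9%, shared with Gm45774), Gpx4 (34.7%), Gstp1 (33.7%), Gstm3 (28.8%) and Sod2 (21.0%), whose values carry the same uncertainty.

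Gsta4, which conjugates the lipid peroxidation product hydroxynonenal, rose in both db/db groups, from 16.2, 19.2, 29.4, 22.6 and 19.4 FPKM in Ctrl to 32.5, 37.2 and 50.4 in Case and 37.2, 51.8 and 69.7 in Dapa (lowest, median, highest). All Case and all Dapa mice lay above Ctrl, and 4 of 6 Dapa mice lay above all Case mice. The log2 fold change was 0.85 ± 0.17, q = 0.00844 in Case, 1.22 ± 0.18, q = 0.000622 in Dapa and a log2 difference of 0.38 (95% interval 0.03 to 0.74, q = 0.359) in Dapa against Case. Gsta3, by contrast, averaged 19.9 ± 2.46, 25.0 ± 6.86 and 20.2 ± 3.35 FPKM in Ctrl, Case and Dapa and was not called. As a result the makeup of the class differed between groups. In Ctrl, Gsta2 made up 10.5% to 30.4% of the summed alpha class FPKM with a median of 17.8%. In Case it made up 33.0% to 71.9% with a median of 59.5%, and in Dapa 42.2% to 68.4% with a median of 61.6%. Gsta3 or Gsta4 was therefore the leading alpha transcript in Ctrl kidneys and Gsta2 was in all 6 Dapa kidneys and in all Case kidneys except replicates 3 and 5.

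**Figure D3:**
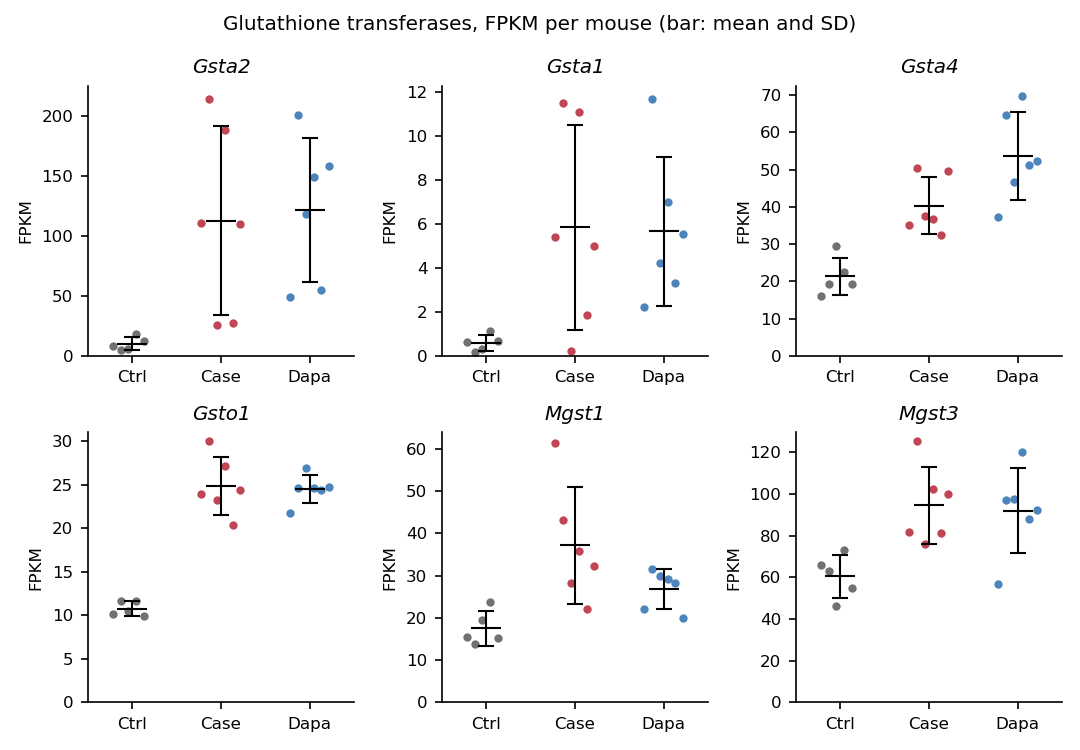
FPKM (y axes, linear, from 0) of 6 transferases in each mouse of Ctrl, Case and Dapa, with group mean and SD as black bars. For Gsta2, Gsta4 and Gsto1 all db/db mice lie above all Ctrl mice, and Gsta1 and Gsta2 vary the most among db/db mice.

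Gsto1, an omega class enzyme with dehydroascorbate reductase activity, had the smallest p of the members. It measured 10.1, 11.6, 10.5, 11.7 and 9.98 FPKM in Ctrl, 20.4, 24.1 and 30.0 in Case and 21.8, 24.6 and 26.9 in Dapa (lowest, median, highest). The db/db mice formed a narrow range above all Ctrl mice, with a log2 fold change of 1.13 ± 0.10, q = 9.25e-05 in Case and 1.08 ± 0.08, q = 3.63e-05 in Dapa. The difference between Dapa and Case was a log2 difference of -0.04 (95% interval -0.26 to 0.18, q = 0.891). Among the other soluble enzymes none was called in Case, and in Dapa the theta class genes Gstt1 (0.37 ± 0.12, q = 0.0330) and Gstt3 (0.26 ± 0.08, q = 0.0250) were higher and Gstz1, which also degrades tyrosine as maleylacetoacetate isomerase, was lower (-0.46 ± 0.13, q = 0.0183). The Gstt1 call in Dapa was lost without Ctrl replicate 1, 2 or 3 or Dapa replicate 8, 9, 10 or 11 (q up to 0.0812). The Gstt3 call in Dapa was lost without Ctrl replicate 1 or 5 or Dapa replicate 10 (q up to 0.0552). The Gstz1 call in Dapa was lost without Ctrl replicate 1 (q then 0.0544). Gstk1, Gstp1 and Gstt2 passed the test in no comparison.

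In the mu class none of 5 tested genes was called in Case (13% of all genes). In Dapa 2 were called, 1 higher (14.2% of all genes) and 1 lower (14.9%). Gstm2 measured 4.79, 5.89, 5.67, 9.92 and 6.87 FPKM in Ctrl, 6.01, 9.92 and 15.3 in Case and 9.70, 14.4 and 27.5 in Dapa (lowest, median, highest), and its log2 fold change was 0.54 ± 0.21, q = 0.107 in Case against Ctrl and 1.18 ± 0.27, q = 0.00704 in Dapa against Ctrl. The highest 3 values were those of Dapa replicates 10 to 12, the mismatched libraries of that group. Without the mismatched libraries the log2 fold change of Gstm2 was 0.63 (q = 0.0890) in Dapa against Ctrl and 0.04 in Dapa against Case. Gstm4 was just inside the threshold in Dapa (-0.32 ± 0.11, q = 0.0494), a call that was lost in 10 of 11 fits without 1 mouse (q up to 0.150). Gstm1, the most abundant of the class at a mean of 80.2 ± 18.8 FPKM in Ctrl, and Gstm5 and Gstm6 were not called, and Gstm3 had at most 7 reads in any mouse.

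Both tested membrane-bound transferases were called higher in both db/db groups, beside 6.09% of all genes in Case and 14.2% in Dapa. These enzymes lie in the endoplasmic reticulum and outer mitochondrial membrane and also reduce lipid peroxides. Mgst1 ran through 15.5, 13.8, 19.4, 23.8 and 15.1 FPKM in Ctrl, against 22.1, 34.0 and 61.4 in Case and 19.9, 28.7 and 31.6 in Dapa (lowest, median, highest), and 5 of 6 Case and 4 of 6 Dapa mice exceeded all Ctrl mice. Its log2 fold change was 1.01 ± 0.23, q = 0.0158 in Case and 0.51 ± 0.15, q = 0.0249 in Dapa. Dapa values were lower than Case values at an unadjusted p of 0.0377, which did not survive adjustment, at a log2 difference of -0.49 (95% interval -0.95 to -0.03, q = 0.361), and the log2 difference was -0.22 without the mismatched libraries. The Mgst1 call in Dapa was lost without Ctrl replicate 1, 2 or 5 or Dapa replicate 10 (q up to 0.0647). Mgst3 measured 66.0, 62.8, 46.3, 73.0 and 54.8 FPKM in Ctrl, 75.9, 90.8 and 125 in Case and 56.7, 94.5 and 119.9 in Dapa, with all Case mice above all Ctrl mice and a log2 fold change of 0.57 ± 0.15, q = 0.0295 in Case and 0.50 ± 0.17, q = 0.0390 in Dapa. The Mgst3 call in Case was lost without Ctrl replicate 2, 3 or 5 or Case replicate 2, 4 or 6 (q up to 0.0850). The Mgst3 call in Dapa was lost without Ctrl replicate 2, 3 or 5 or Dapa replicate 8, 9, 10, 11 or 12 (q up to 0.0895). Mgst2 had at most 19 reads in any mouse.

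The enzymes of glutathione supply went the other way, with 4 of 5 tested members lower in Case (6.91% of all genes) and the same 4 lower in Dapa (14.9% of all genes). Ggt1, the brush border enzyme that splits extracellular glutathione for uptake, showed the clearest change. Its values were 96.2, 97.8, 93.1, 78.5 and 92.6 FPKM in Ctrl, 37.3, 42.1 and 61.5 in Case and 29.0, 51.0 and 63.1 in Dapa (lowest, median, highest). No db/db mouse reached the lowest Ctrl mouse, and the mean of Case was 0.506 times that of Ctrl (log2 fold change -1.06 ± 0.15, q = 0.00119 in Case and -0.99 ± 0.16, q = 0.00131 in Dapa). Dapa and Case differed by a log2 difference of 0.08 (95% interval -0.32 to 0.48, q = 0.886). Ggt1 is itself a proximal tubule gene, and among the markers of that segment Lrp2 fell by 0.98 on the log2 scale in Case, Slc27a2 by 0.82 and Slc22a6 by 0.84, while Slc5a12 and Slc34a1 were not called there. In Dapa against Ctrl 11 of the 15 markers were lower, Slc5a12 (-0.39, q = 0.0404) and Slc34a1 (-0.31, q = 0.0367) among them.

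Gclm and Gclc encode the modifier and catalytic subunits of glutamate-cysteine ligase, the rate-limiting enzyme of glutathione synthesis, and both are textbook NRF2 targets. Gclm stood at 30.8, 26.1, 39.2, 20.2 and 32.9 FPKM in Ctrl, 13.2, 17.5 and 21.7 in Case and 10.00, 16.4 and 21.7 in Dapa (lowest, median, highest). Of the db/db mice, 4 of 6 in Case and 5 of 6 in Dapa were below all Ctrl mice, of which replicate 4 was the lowest. Its log2 fold change was -0.83 ± 0.17, q = 0.00929 in Case and -0.98 ± 0.19, q = 0.00299 in Dapa. Gclc moved in the same direction by less, from 52.5, 57.5, 54.9, 54.1 and 60.4 in Ctrl to 40.0, 49.8 and 52.2 in Case and 42.8, 50.6 and 58.4 in Dapa, with a log2 fold change of -0.28 ± 0.07, q = 0.0287 and -0.27 ± 0.08, q = 0.0241. The Gclc call in Case was lost without Ctrl replicate 1, 2, 3 or 5 or Case replicate 6 (q up to 0.0726). It was also lost under 6 of 12 other settings (no filter, both limma fits, the term for the mismatched libraries, their omission and the replicate block, q up to 0.160). The Gclc call in Dapa was lost without Ctrl replicate 2, 3 or 5 or Dapa replicate 9 or 10 (q up to 0.0635). The ratio of Gclm to Gclc FPKM thus ran from 0.374 to 0.713 in Ctrl, from 0.314 to 0.436 in Case and from 0.234 to 0.421 in Dapa, with medians of 0.544, 0.344 and 0.317 and with overlap between Ctrl and both db/db groups.

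Gss, glutathione synthetase, completed the pathway at 28.7, 25.0, 24.2, 21.6 and 22.3 FPKM in Ctrl, 15.6, 16.8 and 22.0 in Case and 15.9, 17.0 and 24.7 in Dapa (lowest, median, highest). Of the 6 mice in each db/db group, 5 lay below all Ctrl mice, and the log2 fold change was -0.56 ± 0.13, q = 0.0146 in Case and -0.54 ± 0.13, q = 0.00698 in Dapa. Gsr, the reductase that recycles oxidized glutathione, averaged 52.2 ± 2.45 FPKM in Ctrl, 46.8 ± 9.81 in Case and 47.9 ± 7.89 in Dapa and was not called (log2 fold change -0.23 ± 0.15, q = 0.328 in Case). Slc7a11, the cystine importer often read as an NRF2 target, had 0 to 11 reads per mouse and was too low to test in any group.

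**Figure D4:**
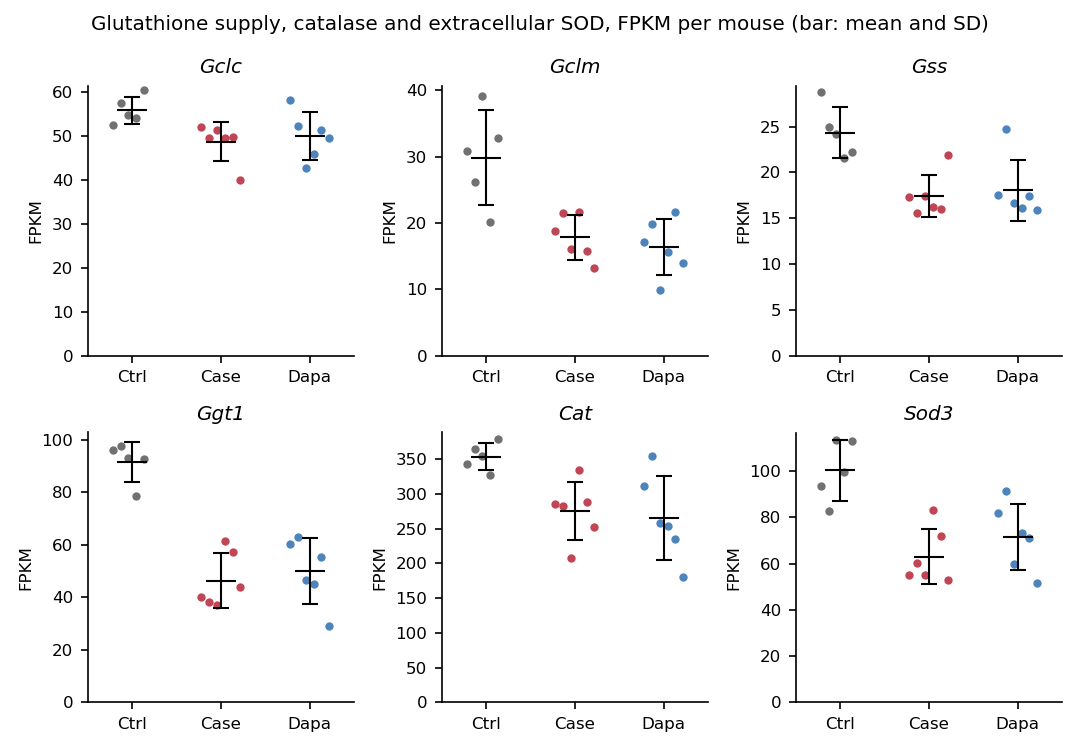
FPKM (y axes, linear, from 0) of Gclc, Gclm, Gss, Ggt1, Cat and Sod3 in each mouse of Ctrl, Case and Dapa, with group mean and SD as black bars. Ggt1 separates all db/db mice from all Ctrl mice. The other 5 are lower on average in both db/db groups, with some overlap with Ctrl except for Gclc in Case.

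None of the 4 glutathione peroxidases was called in Case (13% of all genes). Gpx3, the secreted plasma form made by the proximal tubule, was by far the most abundant member, at a mean of 9205 ± 476 FPKM in Ctrl, 8623 ± 1116 in Case and 8525 ± 1769.5 in Dapa (log2 fold change -0.17 ± 0.14, q = 0.463 and -0.22 ± 0.15, q = 0.294 against Ctrl). Gpx1, the cytosolic form, was between 121 and 228 FPKM in all mice except Ctrl replicate 3 (365 FPKM), Case replicate 1 (532) and Case replicate 4 (395). These 3 mice do not fall in one group, and the gene was not called (log2 fold change 0.32 ± 0.41, q = 0.650 in Case). Their erythrocyte sums were 22.1, 61.2 and 190.0 FPKM, the lowest of their groups in the first 2. Whether these sums are related to Gpx1 was not tested. Ctrl replicate 3 and Case replicate 1 are among the mismatched libraries. Gpx4, which reduces phospholipid peroxides, had a log2 fold change of 0.01 ± 0.12, q = 0.977 in Case and -0.20 ± 0.08, q = 0.0738 in Dapa. Gpx6 was called higher in Dapa alone, with 10.1, 15.4, 17.9, 30.8 and 18.9 FPKM in Ctrl, 15.0, 28.0 and 48.9 in Case and 20.1, 35.0 and 63.4 in Dapa (0.55 ± 0.30, q = 0.249 in Case and 1.02 ± 0.30, q = 0.0228 in Dapa against Ctrl). The Gpx6 call in Dapa was lost without Ctrl replicate 1 or 2 or Dapa replicate 10 (q up to 0.0528). Dapa against Case gave a log2 difference of 0.48 (95% interval -0.17 to 1.13, q = 0.510) for this gene, so the groups given and not given dapagliflozin are not shown to differ. Without the mismatched libraries the log2 fold change of Gpx6 was 0.65 (q = 0.182) in Dapa against Ctrl and 0.03 in Dapa against Case.

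Of the 8 genes of the thioredoxin and peroxiredoxin group, none was called in Case (13% of all genes) and 3 were lower in Dapa (37.5%, beside 14.9% of all genes). Prdx1, the main cytosolic peroxiredoxin, measured 214, 180.0, 189, 160.4 and 177 FPKM in Ctrl, 115, 161 and 196 in Case and 106, 136 and 142 in Dapa (lowest, median, highest). All Dapa mice were below all Ctrl mice, and Case overlapped both groups (log2 fold change -0.29 ± 0.14, q = 0.194 in Case and -0.61 ± 0.11, q = 0.00198 in Dapa). The mitochondrial forms Prdx3 (-0.24 ± 0.08, q = 0.0325) and Prdx5 (-0.31 ± 0.09, q = 0.0164) were lower in Dapa. The Prdx5 call was lost under both limma fits and without the mismatched libraries (q up to 0.387). The Prdx3 call in Dapa was lost without Ctrl replicate 1, 2 or 3 or Dapa replicate 9, 10, 11 or 12 (q up to 0.0938). Txnrd1 and Srxn1, which reduce thioredoxin and hyperoxidized peroxiredoxins and are NRF2 targets, had log2 fold changes of -0.25 ± 0.08, q = 0.0634 and 0.19 ± 0.10, q = 0.214 in Case and -0.21 ± 0.08, q = 0.0629 and 0.01 ± 0.10, q = 0.936 in Dapa. Txn1 had the smallest p of all members in Dapa against Case, with 197, 245 and 356 FPKM in Case and 139, 184 and 247 in Dapa, and 5 of 6 Dapa mice were below all Case mice. At a log2 difference of -0.48 (95% interval -0.81 to -0.15, q = 0.251), it did not pass adjustment over all genes. Under other settings than the omission of 1 mouse the Txn1 difference ran from -0.49 to -0.22 (q from 0.108 to 0.929). Prdx2 and Prdx6 were called in no comparison.

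Catalase and the superoxide dismutases were lower on average in both db/db groups. Sod3, the extracellular form bound to vessel walls and matrix, measured 93.4, 82.6, 113, 99.7 and 113 FPKM in Ctrl, 52.8, 57.7 and 83.1 in Case and 51.8, 72.2 and 91.4 in Dapa (lowest, median, highest). Of 6 mice in each db/db group, 5 lay below all Ctrl mice (log2 fold change -0.75 ± 0.13, q = 0.00418 in Case and -0.60 ± 0.14, q = 0.00663 in Dapa). Cat, the peroxisomal enzyme that splits hydrogen peroxide, ran through 343, 364, 355, 327 and 379 FPKM in Ctrl, against 208, 284 and 334 in Case and 181, 256 and 354 in Dapa. It was called lower in Case (-0.44 ± 0.12, q = 0.0330) and Dapa (-0.52 ± 0.14, q = 0.0173), with 5 of 6 mice below all Ctrl mice in each. The Cat call in Case was lost without Ctrl replicate 1, 2, 3 or 5 or Case replicate 2 or 6 (q up to 0.0757). Sod1, the cytosolic copper and zinc enzyme, missed the threshold in Case (-0.33 ± 0.11, q = 0.0601) and was lower in Dapa (-0.45 ± 0.09, q = 0.00413), where all 6 mice were below all Ctrl mice. Sod2, in mitochondria, was just inside the threshold in Dapa (-0.20 ± 0.07, q = 0.0474), a call lost in 9 of 11 fits without 1 mouse (q up to 0.145). Cat is high in the proximal tubule and in erythrocytes, whose summed markers moved in opposite directions, the former mainly through Kap.

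The 2 best known NRF2 targets of the list diverged. Nqo1, a quinone reductase, measured 32.3, 21.4, 31.0, 32.0 and 32.4 FPKM in Ctrl, 35.1, 39.5 and 45.1 in Case and 34.7, 42.8 and 78.4 in Dapa (lowest, median, highest). All db/db mice lay above all Ctrl mice, and Nqo1 missed the threshold in Case (log2 fold change 0.31 ± 0.11, q = 0.0858) and passed it in Dapa (0.61 ± 0.20, q = 0.0340). The Nqo1 call in Dapa was lost without Ctrl replicate 2, 3, 4 or 5 or Dapa replicate 8 or 10 (q up to 0.0773). Hmox1, the inducible heme oxygenase, measured 6.34, 7.46, 8.28, 10.0 and 9.03 FPKM in Ctrl, 3.57, 6.67 and 7.64 in Case and 2.96, 3.99 and 7.82 in Dapa. It was lower on average in Case (-0.52 ± 0.17, q = 0.0624) without passing the threshold and was called lower in Dapa (-0.91 ± 0.25, q = 0.0165), where 4 of 6 mice were below all Ctrl mice. Dapa against Case gave a log2 difference of 0.31 (95% interval -0.06 to 0.67, q = 0.450) for Nqo1 and a log2 difference of -0.39 (95% interval -0.94 to 0.17, q = 0.536) for Hmox1.

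**Figure D5:**
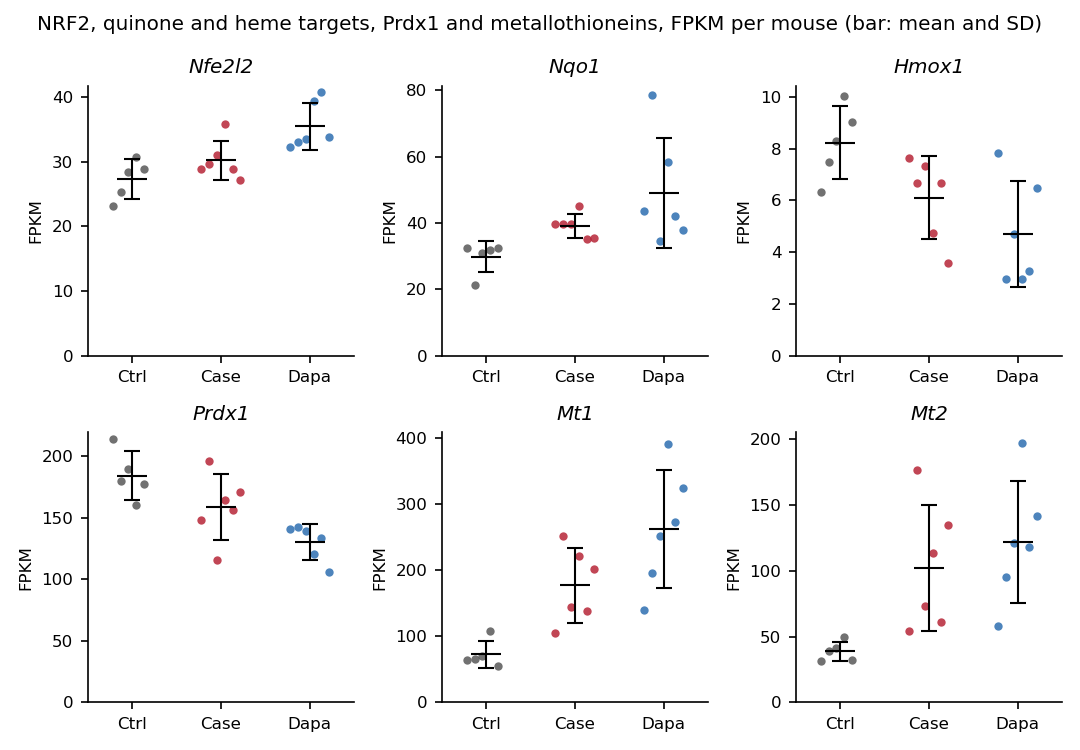
FPKM (y axes, linear, from 0) of Nfe2l2, Nqo1, Hmox1, Prdx1, Mt1 and Mt2 in each mouse of Ctrl, Case and Dapa, with group mean and SD as black bars. All Dapa mice lie above all Ctrl mice for Nfe2l2, Nqo1, Mt1 and Mt2 and below them for Prdx1.

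The metallothioneins, small cysteine-rich proteins that bind zinc and copper and scavenge radicals, rose in both db/db groups. Their genes are neighbours on chromosome 8 (Mt2 at 94172618 to 94173567, Mt1 at 94179089 to 94180325). Mt1 measured 64.3, 65.6, 70.8, 108 and 55.1 FPKM in Ctrl, 104, 173 and 253 in Case and 139.8, 262 and 392 in Dapa (lowest, median, highest). All Dapa mice and 5 of 6 Case mice were above all Ctrl mice, and 3 Dapa mice, replicates 10 to 12, were above all Case mice. The log2 fold change was 1.21 ± 0.23, q = 0.00641 in Case and 1.75 ± 0.24, q = 0.000540 in Dapa, and a log2 difference of 0.54 (95% interval -0.01 to 1.09, q = 0.390) in Dapa against Case. Those 3 mice are the mismatched libraries of their group, and without all 7 such libraries the log2 difference of Mt1 between Dapa and Case was 0.03. Mt2 measured 31.5, 38.8, 41.4, 49.5 and 32.3 FPKM in Ctrl, 54.0, 93.0 and 176 in Case and 58.3, 119.5 and 197 in Dapa (lowest, median, highest), with every db/db mouse above every Ctrl mouse and a log2 fold change of 1.33 ± 0.29, q = 0.0127 in Case and 1.55 ± 0.25, q = 0.00107 in Dapa. The Mt2 call in Case was lost with a term for the mismatched libraries and without them (q up to 0.109).

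Metallothionein genes answer to the metal-sensing factor MTF-1, which binds metal response elements. The letters of that element's core (TGCGCNC or TGCACNC, either strand) were found in the windows of 11 of 41 members (26.8%), beside 28.2% of all genes with a window, so that the letters alone were no more common among the members. Their number was highest in Mt2, with 4, and Mt1 and Gclm followed with 3 each. In Gclm, 1 of the 3 overlaps the antioxidant core shown above. The whole windows of Mt1 and Mt2 are shown because both genes rose in both db/db groups, with the metal response cores in capitals, in the direction of the gene.
Mt2, chr8:94172368-94172667, + strand: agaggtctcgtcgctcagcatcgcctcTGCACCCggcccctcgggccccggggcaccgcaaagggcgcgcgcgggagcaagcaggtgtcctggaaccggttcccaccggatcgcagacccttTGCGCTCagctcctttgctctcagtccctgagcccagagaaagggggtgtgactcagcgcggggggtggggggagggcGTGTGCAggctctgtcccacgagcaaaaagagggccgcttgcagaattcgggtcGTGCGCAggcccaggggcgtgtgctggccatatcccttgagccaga
Mt1, chr8:94178839-94179138, + strand: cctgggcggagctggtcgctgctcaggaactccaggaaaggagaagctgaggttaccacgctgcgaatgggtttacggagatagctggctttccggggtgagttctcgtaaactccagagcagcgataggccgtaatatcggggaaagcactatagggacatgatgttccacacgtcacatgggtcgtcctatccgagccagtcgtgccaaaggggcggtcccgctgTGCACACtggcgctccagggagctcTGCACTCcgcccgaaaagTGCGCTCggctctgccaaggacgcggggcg

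Dapagliflozin against saline within db/db mice gave no call among the members, and the intervals set bounds on what could be missed. The 6 members with an unadjusted p under 0.05 were Txn1, Gstm2, Nfe2l2, Gsta4, Mgst1 and Prdx1, with q from 0.251 to 0.365. They make up 13.3% of the members tested, close to the 12.9% of all genes. Nfe2l2, Gsta4 and Gstm2 were higher in Dapa, with the sign they had in Case against Ctrl, and Prdx1 was lower, also with that sign. Mgst1 and Txn1 were lower in Dapa, against the sign of their difference between Case and Ctrl. Txn1, Gstm2, Nfe2l2 and Prdx1 were not called in Case against Ctrl, so their sign there is uncertain. Both comparisons use the same Case mice, and none of the 6 differences passed adjustment. Without the mismatched libraries the log2 differences of Nfe2l2, Gsta4 and Prdx1 were 0.11, 0.24 and -0.20. That of Txn1 ran from -0.49 to -0.22 under other settings. Of the 14 members called in Case against Ctrl, Gsta1, Gsta2, Gsto1, Mgst3, Gclc, Gss, Ggt1 and Cat had differences between Dapa and Case of no more than 0.08 on the log2 scale, with wide intervals for Gsta1 (-1.40 to 1.25) and Gsta2 (-1.02 to 1.18) and narrow ones for Gclc (-0.16 to 0.19) and Gsto1 (-0.26 to 0.18). Under other settings these differences reached 0.47 for Gsta1 and 0.35 for Gsta2 (limma on log2(FPKM + 0.1)), and without the mismatched libraries 0.24 for Ggt1, -0.22 for Mgst3, 0.15 for Gss and 0.16 for Cat, whose sign changed.

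Other genes of these pathways, from 4 lists of 91 genes in all, were changed in both directions too. Of 82 tested in Case against Ctrl, 10 were higher (12.2%, beside 6.09% of all genes) and 11 lower (13.4%, beside 6.91%). In the list of other glutathione and thioredoxin genes, 1 of 32 was higher, Txnip, the inhibitor of thioredoxin that glucose induces (0.68 ± 0.19, q = 0.0320), and 4 were lower, 15.6% in all beside 13% of all genes. The 3 largest decreases among called genes were those of Ggct, which splits gamma-glutamyl amino acids (-1.38 ± 0.18, q = 0.000813), Selenop, the secreted selenium carrier (-1.12 ± 0.16, q = 0.00106), and Lap3, a leucine aminopeptidase (-0.64 ± 0.15, q = 0.0168).

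Among other NRF2 targets and partners, 6 of 30 were higher (20%, beside 6.09% of all genes) and 4 lower (13.3%, beside 6.91%). The largest increases among called genes were those of Ephx1, microsomal epoxide hydrolase (1.34 ± 0.23, q = 0.00323), Akr1c13, an aldo-keto reductase (1.18 ± 0.18, q = 0.0020), and Abcc4, an exporter of organic anions (1.12 ± 0.13, q = 0.000459). The largest decreases among called genes were those of Ces1g, a carboxylesterase (-3.27 ± 0.57, q = 0.00358), Ugdh, which makes UDP-glucuronic acid (-0.53 ± 0.11, q = 0.00780), and Sqstm1, the autophagy adaptor that binds KEAP1 (-0.33 ± 0.09, q = 0.0348). Among 13 NADPH suppliers, 2 were higher (15.4%, beside 6.09% of all genes) and 3 lower (23.1%, beside 6.91%). Me1, the cytosolic malic enzyme, was down most (-1.30 ± 0.18, q = 0.00101) and Me2, its mitochondrial counterpart, was up (0.70 ± 0.15, q = 0.0106). Of 7 superoxide producers tested, only Xdh, xanthine dehydrogenase, was called (1.55 ± 0.38, q = 0.0203), a share of 14.3% that is close to that of all genes, with a mean of 9.80 FPKM in Ctrl, 30.6 in Case and 11.6 in Dapa. In Dapa against Ctrl, 16 of 83 tested genes were higher (19.3%, beside 14.2% of all genes) and 22 lower (26.5%, beside 14.9%), and in Dapa against Case none of 83 was called.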

How the data were processed

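Whole-kidney RNA (oligo(dT)-selected, strand-specific libraries) was sequenced from 5 Ctrl, 6 Case and 6 Dapa mice, grouped by their labels. The authors aligned reads to mm10 with HISAT2 and counted them with Stringtie, and they deposited raw read counts and FPKM (fragments per kilobase of transcript, scaled to library size) per gene in one table. The methods name TMM scaling before FPKM, but the deposited FPKM followed count, total and length to within 0.00573% and carry no such factor. In 3 genes deposited as split entries, which were left out, FPKM and counts disagreed in 7 libraries by more than 0.002 (3 Ctrl, 1 Case, 3 Dapa). Ctrl replicate 2 deviated by less and was kept as matching.

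Members and gene lists were chosen with earlier results of these data known. Counts were tested with edgeR 4.0.16 in R 4.3.3 (TMM, filterByExpr, quasi-likelihood), 2 groups at a time over all genes, with Benjamini-Hochberg adjustment (q). A standard error is the log2 fold change over the root of F, and its 95% interval uses that test's degrees of freedom. Values per mouse are FPKM. Tests were checked on simulated counts with 200 genes changed 4-fold. Of those tested, 93.3% to 96.4% were recovered. Smaller changes and the library mismatch were not simulated. No 2 libraries of a group matched within counting noise. Labels do not say whether mice were littermates, so p-values measure the spread between these animals. The smallest library, 13039535 counted reads, limits genes with few reads, and precision covers counting and animal spread together.

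Named are the 24 members with the smallest p among the 28 called in any comparison, and 14 that were always named. Other members are given by counts, except Gpx1, Gpx4, Gstm1, Gstm4, Gsta3, Gstt1, Sod2, Txn1 and those named without values, which were picked after their values were seen. Alternatives tried were median ratio scaling, DESeq2 1.42.0, the exact test, limma 3.58.1 on log2(FPKM + 1) and log2(FPKM + 0.1), other filters, all 3 groups in one fit, omission of mitochondrial genes, of each mouse or of the 7 libraries, a term for those libraries, and a replicate block. Marker lists not described in the report (podocyte, endothelium, macrophage, T and NK cell, neutrophil, adrenal gland, liver, adipocyte, collecting duct, thick ascending limb and distal tubule) are summarised in the closing section. Promoter windows and gene models came from RefSeq (GRCm38.p6) and GENCODE, and chromatin accessibility data were not analysed here.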

Additional observations from a re-analysis of the deposited data

Results flagged for a closer look

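In 93 sets of values (31 named members and Gpx1 in 3 groups, those with few reads left out), 10 values stood apart from the rest of their group by Dixon's criterion, where chance flags about 1 set in 20. Among the supply genes, Ggt1 was low in Ctrl replicate 4, at 78.5 FPKM beside 92.6 to 97.8 in the other 4. Gss was high in Case replicate 6, at 22.0 FPKM beside 15.6 to 17.4, and in Dapa replicate 8, at 24.7 beside 15.9 to 17.5. Gclc was low in that same Case replicate 6, at 40.0 FPKM beside 49.6 to 52.2, and Gsr was low in Case replicate 2, at 27.6 beside 46.7 to 54.7. Gstz1 was low in Case replicate 3, at 92.1 FPKM beside 148 to 176, the mouse with the highest macrophage and erythrocyte sums (193.8 and 440.3 FPKM).

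Prdx3 was low in Ctrl replicate 5, at 123 FPKM beside 132 to 135, and Nqo1 in Ctrl replicate 2, at 21.4 beside 31.0 to 32.4. Keap1 was low in Dapa replicate 10, at 2.48 FPKM beside 3.62 to 4.07. Gpx1 was high in Ctrl replicate 3, at 365 FPKM beside 136 to 155 in the other 4. That mouse also had the highest adipocyte marker sum, 69.8 FPKM against at most 10.4 in any other mouse. Whether these values and the marker sums are related was not tested.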

How the results depend on the processing

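No call of a member changed direction under any alternative run. In Case against Ctrl, the count of 14 called members was 13 to 18 under the other scaling, tests and filters and the fit of all 3 groups (7.24% to 15.3% of all genes), 10 with a term for the mismatched libraries (without Mgst3, Gclc, Cat and Mt2, 8.36% of all genes), 6 with the fold rule and 10 to 16 when 1 mouse was left out (6.80% to 14.9% of all genes). Only 2 calls (Gsto1 and Mt1) were left without the 7 mismatched libraries, an alternative chosen after seeing the data, which keeps 2 Ctrl and 5 Case mice. In Dapa against Ctrl, the count of 28 was 23 to 28 under the same settings (17.6% to 31.4% of all genes), 8 with the fold rule, 17 to 28 when 1 mouse was left out (21.8% to 32.3% of all genes), and 5 without the mismatched libraries (Gsta2, Gsta4, Gsto1, Ggt1 and Mt1), with 2 Ctrl and 3 Dapa mice left. Calls over all genes fell to 1.70% and 1.84% under that omission, and its lost calls kept their sign. In Dapa against Case, 0 members were called under every setting, DESeq2 and the exact test included, which called 1.44% and 0.858% of all genes.

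With the replicate block, 9 members (20%, beside 4.83% of all genes) were called in Case against Ctrl. The numbers shared by Ctrl and Case are not known to pair the mice: same-numbered mice had correlations of their deviations from the group means of -0.07 to -0.04, and no Ctrl mouse correlated best with its own number. For the members called, 26 of 167 values in Case against Ctrl and 49 of 307 in Dapa against Ctrl lost the call under other settings than the omission of 1 mouse, most often Gclc (6 of 12) and Cat (4 of 12) in Case and Gstm4 (10 of 11), Sod2 (9 of 11) and Prdx3 (5 of 11) in Dapa. Of named members without a call, 11 values in Case against Ctrl gained one under such settings, and 8 in Case and 2 in Dapa against Ctrl when 1 mouse was left out. Of values of named members that missed the threshold, 43 in Dapa against Case and 4 in Dapa against Ctrl changed sign.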

Other observations

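Several of the marker lists that accompany the members also differed between groups. Collecting duct genes were higher in db/db kidneys, with 3 of 8 called in Case and 6 of 8 in Dapa (summed FPKM 163 to 207 in Ctrl, 206 to 315 in Case, 243 to 439 in Dapa), among them Aqp2, the water channel of principal cells (0.78 ± 0.22, q = 0.0395 in Case and 1.44 ± 0.34, q = 0.00754 in Dapa). Of 7 genes of the thick ascending limb and distal tubule, 2 were higher in Case and 3 in Dapa, with Calb1, a calcium-binding protein of the distal tubule, changed most (1.55 ± 0.27, q = 0.00347 in Case). Of 5 podocyte genes, 2 were higher in both, Nphs1 and Podxl. No endothelial gene and no macrophage gene tested was called in any comparison, and of T and NK cell genes 2 at most could be tested, none of them called.

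In the liver list only Cyp2e1, which the kidney also expresses, was called (-1.22 ± 0.18, q = 0.00156 in Case). In the adrenal list only Hsd3b1 was called, at a mean of 0.184 FPKM in Ctrl, 0.644 in Case and 4.25 in Dapa. One neutrophil gene could be tested and was not called, and no adipocyte gene passed the filter.

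Members on the same stretch of chromosome 9 went opposite ways in db/db kidneys. Gsta4, Gsta1 and Gsta2 lie between positions 78191966 and 78355788 and rose, while Gclc, at 77754535 to 77794485, fell.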
